A study of Mus musculus with 16 samples.

Results

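The proteasome genes of brain macrophages were followed here across a bone marrow graft and an endotoxin challenge. The members are the genes whose symbol starts with Psma to Psmg and a number, without the immunoproteasome subunits Psmb8, Psmb9 and Psmb10. They were 47 of the 24411 genes in the count table. Of these, 31 encode constitutive subunits of the 26S particle, 14 of them in the 20S core and 17 in the 19S cap. The other 16 are 5 genes of activators, 1 inhibitor, 4 chaperones of 20S assembly, 3 chaperones of 19S assembly, the tissue-restricted 20S subunits Psma8 and Psmb11, and Psmc3ip, a meiotic recombination factor that shares the symbol pattern and is no subunit. The name constitutive proteasome subunit therefore holds for 31 of the 47, and the counts for these 31 are given apart.

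The study asked how macrophages that a graft leaves in the brain differ from the microglia of the host, and how each responds to a systemic challenge. C57BL/6J wild-type recipients, labelled WT, were lethally irradiated with 950 cGy and received congenic bone marrow that carried CD45.1. The labels give 3.5 or 9 months between graft and sorting without assigning a time to each library. From the brain of each of 8 mice both populations were taken, 10000 cells each, as Ly6C/G-negative CD11b+ cells with low CD45.1 (engrafted cells) or low CD45.2 (host microglia). Mice 5 to 8 were not injected (control), and mice 1 to 4 received 2.5 mg/kg lipopolysaccharide (LPS) 12 h before sorting. The 16 libraries thus formed 4 groups of 4, and all 8 mice were irradiated and grafted. The host microglia were themselves irradiated, whereas the engrafted cells came from marrow transplanted after the irradiation. Between the populations, origin and exposure to irradiation therefore cannot be told apart. A host population after irradiation is not a microglia population of an untouched brain, and no group here is one.

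The proteasome is the protease that degrades proteins marked with ubiquitin. Its 20S core is a barrel with outer alpha rings, which gate the entry, and inner beta rings, of which Psmb5, Psmb6 and Psmb7 carry the active sites. The 19S cap binds ubiquitin chains, removes them and feeds the unfolded protein into the core through a ring of ATPases. In immune cells, interferon and other inflammatory signals can replace the catalytic subunits by Psmb8, Psmb9 and Psmb10, which changes the peptides that reach MHC class I molecules, and activators such as PA28 can take the place of the cap.

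The libraries held 395283 to 1203597 reads on genes, the fewest in engrafted LPS mouse 4. Levels are given as CPM (reads per 1000000 reads on genes) after TMM scaling over the 16 libraries. Sequencing started from the 3′ end of transcripts, so levels of different genes were not compared with each other. The populations were sorted by surface proteins, and marker genes were summed to describe them. Summed over 7 microglia genes, the level was 13739 to 16881 CPM in host control and 8949.6 to 10024 CPM in engrafted control libraries, and 7046 to 8003 and 4394 to 5695 CPM after LPS. Means in host and engrafted control libraries were close for Csf1r (5496 and 4902 CPM) and Fcrls (2337 and 2310 CPM). They were far apart for Sall1 (321 and 17.3 CPM) and Slc2a5 (618 and 25.4 CPM). P2ry12, Tmem119 and Siglech were also higher in host control libraries. The 5 genes known from engrafted cells summed to 2408 to 2572 CPM in engrafted control against 54.2 to 79.8 CPM in host control libraries. The paper itself reported Ms4a7, Mrc1, Runx3 and Cybb of this list as higher in engrafted cells. It also reported Sall1, Slc2a5, P2ry12, Tmem119 and Siglech as higher in host microglia. These differences are therefore descriptions and no separate check of the sort. Markers of neurons, astrocytes, oligodendrocytes, endothelium, B cells and T and NK cells summed to at most 148 CPM in any library. A neutrophil list summed to 187 to 1124 CPM in engrafted control and 23.2 to 446 CPM in engrafted LPS libraries.

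Levels of proteasome genes rose with LPS in both populations. A member was counted as changed at an adjusted p below 0.05 in edgeR's quasi-likelihood test, adjusted over all genes tested. In engrafted cells, 42 of the 47 members had enough reads to be tested, 26 were higher after LPS and 0 were lower (0 at an unadjusted p below 0.05 as well, and 0 with DESeq2), whereas 19.4% of all 7609 genes tested were higher and 19.3% were lower. In host microglia, 43 were tested, 24 were higher and 0 were lower (0 at an unadjusted p below 0.05, and 0 with DESeq2), against 19.2% and 20.5% of 8238 genes. Among the 31 subunits of the 26S particle, all of which were tested, 23 rose in engrafted cells and 19 in host microglia. Their median log2 fold change was 0.85 and 0.58, beside a median over all genes tested of -0.01 and 0.01. All 31 fold changes were above 0 in both populations.

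**Figure D1:**
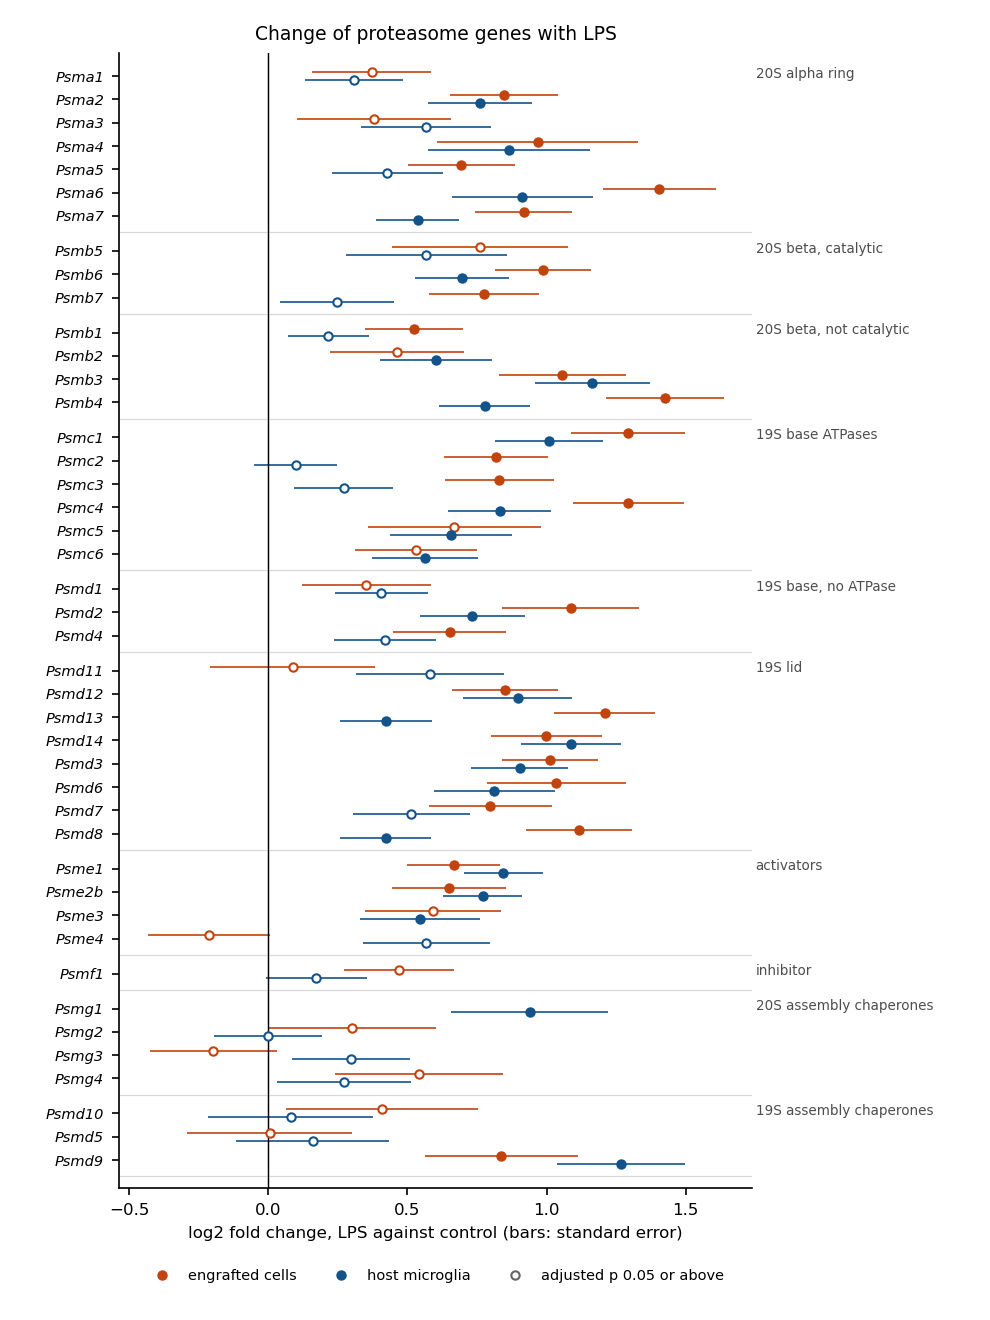
Log2 fold change with LPS (x axis) of the members tested, grouped by role, in engrafted cells (orange) and host microglia (blue). Bars are standard errors, and open circles mark an adjusted p of 0.05 or above. The 31 subunits of the 26S particle lie to the right of 0 in both populations, from 0.09 for Psmd11 to 1.42 for Psmb4 in engrafted cells and from 0.10 for Psmc2 to 1.16 for Psmb3 in host microglia.

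Most single changes were below 2-fold. Past a 2-fold change, with an adjusted p below 0.05, lay 10 members in engrafted cells (21.5% of all genes tested passed this rule in either direction) and 4 in host microglia (18.0%). The 4 control and the 4 LPS libraries did not overlap for 25 higher members in engrafted cells (18.3% of all genes tested) and for 18 in host microglia (17.1%). The test was passed in both populations by 19 members, which was 73.1% of the 26 in engrafted cells and 79.2% of the 24 in host microglia. Psma5, Psmb1, Psmb7, Psmc2, Psmc3, Psmd4 and Psmd7 passed in engrafted cells alone, and Psmb2, Psmc5, Psmc6, Psme3 and Psmg1 in host microglia alone. A call in 1 population alone does not show a difference in response, which was tested as an interaction. Both populations came from the same mice, so that the comparisons are not independent in their animals.

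Other features of the libraries moved with the challenge. The summed microglia list was lower after LPS in both populations, without overlap, and the list known from engrafted cells was 1447 to 2211 CPM in engrafted LPS and 109.9 to 275 CPM in host LPS libraries. A list of monocyte genes, among them Ly6c2, Ccr2 and F13a1, was 149 to 289.8 CPM in engrafted control and 712 to 1313 CPM in engrafted LPS libraries, where Ly6c2 and F13a1 rose and Ccr2 fell. The B cell list, of which Cd79b was the gene above a few reads, was 32.8 to 74.2 CPM in engrafted control, 15.9 to 26.8 CPM in engrafted LPS, 37.9 to 49.0 CPM in host control and 18.1 to 22.9 CPM in host LPS libraries. The oligodendrocyte list was 115 to 133 CPM in engrafted control and 61.5 to 72.9 CPM in engrafted LPS libraries, where Mbp and Mag fell, and 107 to 148 and 67.8 to 116 CPM in the host groups. The share of mapped reads that fell on genes was 64.0 to 66.3% in engrafted control, 68.3 to 76.5% in engrafted LPS, 65.1 to 70.9% in host control and 66.9 to 69.9% in host LPS libraries. In host microglia the monocyte list was 8.77 to 22.5 CPM in control and 7.24 to 19.5 CPM in LPS libraries. There the neutrophil list was 0 to 2.39 CPM in control and 5.56 to 15.0 CPM in LPS libraries. The part of these lists and of the share of reads on genes in the proteasome changes was not tested. In sorted bulk samples, fewer cells of a type and less RNA per cell cannot be told apart. Without the shallowest library, engrafted LPS mouse 4, 31 members were higher in engrafted cells.

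The 7 genes of the alpha ring, which forms the gate of the core, had a median log2 fold change of 0.85 in engrafted cells and 0.57 in host microglia. Of them, 5 and 4 were higher at the threshold, beside 19.4% and 19.2% of all genes tested. Psma6 changed most. Its level was 48.4, 59.0, 60.6 and 41.4 CPM in the engrafted control libraries of mice 5 to 8 and 179, 127, 118 and 146 CPM in the engrafted LPS libraries of mice 1 to 4, an order of mice that is kept below. The groups did not overlap, and the rise was 2.65-fold, a log2 fold change of 1.41 ± 0.20 (adjusted p = 1.55e-05). In host microglia Psma6 was 38.1, 46.6, 68.6 and 28.6 CPM in control and 84.9, 132, 59.2 and 73.7 CPM in LPS libraries. There the LPS library of mouse 3 was below the control library of mouse 7, and the log2 fold change of 0.91 ± 0.25 (adjusted p = 0.00609) passed the test.

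Psma7, Psma2 and Psma4 rose in both populations, with log2 fold changes of 0.92 ± 0.17, 0.85 ± 0.20 and 0.97 ± 0.36 in engrafted cells and 0.54 ± 0.15, 0.76 ± 0.19 and 0.87 ± 0.29 in host microglia. Adjusted p-values were 0.000318, 0.00181 and 0.0396 in the former and 0.00621, 0.00246 and 0.0221 in the latter. Psma4 rested on few reads, 3 in engrafted LPS mouse 4. In engrafted cells its call was lost without any 1 of the control libraries of mice 5, 6 and 7 or the LPS libraries of mice 1, 2 and 3, with adjusted p between 0.0559 and 0.199, and with DESeq2 (0.0645), library totals (0.0639) or limma-trend (0.143). In host microglia it was lost without control mouse 8 (0.0653) or LPS mouse 1 (0.0882). Psma5 passed in engrafted cells, with a log2 fold change of 0.69 ± 0.19 (adjusted p = 0.00726), and gave 0.43 ± 0.20 (adjusted p = 0.0952) in host microglia. Psma1 and Psma3 passed in neither, with log2 fold changes of 0.37 and 0.38 in engrafted cells and 0.31 and 0.57 in host microglia.

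The beta ring holds 3 catalytic and 4 structural subunits. Psmb6, the subunit with caspase-like activity, was 153, 165, 156 and 182 CPM in engrafted control and 364, 379, 290.1 and 297 CPM in engrafted LPS libraries. In host microglia it was 179, 166, 199 and 171 CPM in control and 297, 392, 269 and 206 CPM in LPS libraries. In both populations every LPS library was above every control library, with a log2 fold change of 0.99 ± 0.17 (adjusted p = 0.000142) in engrafted cells and a log2 fold change of 0.70 ± 0.17 (adjusted p = 0.00220) in host microglia. Psmb7, with trypsin-like activity, was 54.4, 52.3, 65.5 and 52.2 CPM in engrafted control and 108, 93.9, 79.4 and 118 CPM in engrafted LPS libraries. These groups were apart, and the log2 fold change of 0.77 ± 0.20 (adjusted p = 0.00427) passed the test. In host microglia Psmb7 was 39.5, 61.2, 79.0 and 66.4 CPM in control and 89.5, 83.8, 56.7 and 68.2 CPM in LPS libraries, groups that overlapped, with a log2 fold change of 0.25 ± 0.21 (adjusted p = 0.361).

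Psmb5, the subunit with chymotrypsin-like activity, passed the test in neither population. It was 27.2, 23.6, 9.83 and 36.0 CPM in engrafted control and 47.0, 47.6, 28.6 and 47.7 CPM in engrafted LPS libraries, and 19.03, 14.6, 20.7 and 41.9 CPM in host control and 39.0, 25.9, 32.6 and 48.7 CPM in host LPS libraries. The groups overlapped in both, with 6 to 42 reads per library. The log2 fold change was 0.76 ± 0.32 in engrafted cells (adjusted p = 0.0630) and 0.57 ± 0.29 in host microglia (adjusted p = 0.127). In engrafted cells it passed without control mouse 8 (0.0324) or LPS mouse 3 (0.0340), and in host microglia without control mouse 8 (0.0103) or LPS mouse 2 (0.0491). In engrafted cells it passed without a filter (0.0275) and with limma-trend (0.0352) as well.

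Psmb4, the last beta subunit to join the ring, gave the largest fold change of the members tested in engrafted cells. It was 143, 143, 172 and 139 CPM in control and 384, 401, 294 and 572 CPM in LPS libraries, a rise of 2.68-fold and a log2 fold change of 1.42 ± 0.21 (adjusted p = 2.36e-05). In host microglia it was 138, 173, 164 and 165 CPM in control and 267, 376, 240.3 and 223 CPM in LPS libraries. The groups were apart in both populations, and the host log2 fold change of 0.78 ± 0.16 (adjusted p = 0.000619) was the smaller of both. Psmb3 was 28.2, 30.3, 26.2 and 36.0 CPM in engrafted control and 76.1, 59.8, 54.6 and 67.3 CPM in engrafted LPS libraries, and 23.4, 28.2, 23.9 and 28.6 CPM in host control and 66.5, 70.8, 43.5 and 54.3 CPM in host LPS libraries. It rose past 2-fold in both, with a log2 fold change of 1.06 ± 0.23 (adjusted p = 0.00101) in engrafted cells and a log2 fold change of 1.16 ± 0.21 (adjusted p = 0.000110) in host microglia. Psmb1 passed in engrafted cells alone (0.52 ± 0.18, adjusted p = 0.0232), a call lost without control mouse 5, 6 or 8 or LPS mouse 1, with adjusted p of 0.0553 to 0.0809. Psmb2 passed in host microglia alone (0.60 ± 0.20, adjusted p = 0.0207), a call lost without control mouse 5 (0.0641) or control mouse 8 (0.0515).

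**Figure D2:**
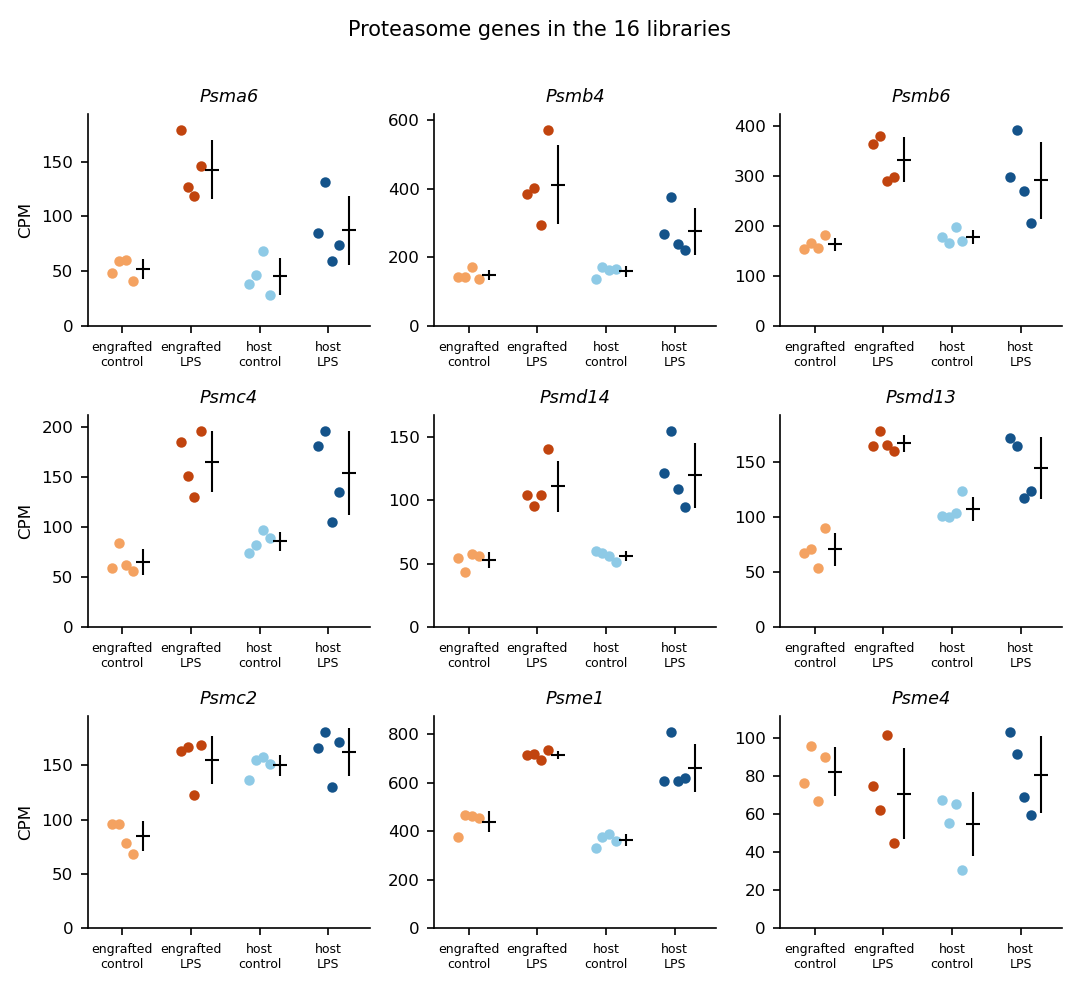
Level of 9 members in each library (points, CPM, linear axes from 0), with the mean and SD of each group of 4 at its right. The means of Psma6, Psmb4, Psmb6, Psmc4, Psmd14 and Psme1 are higher after LPS in both populations, Psmc2 and Psmd13 lie lower in engrafted control than in host control libraries, and the groups of Psme4 overlap.

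The 6 ATPases of the cap's base unfold the substrate. Psmc4 was 59.4, 84.3, 62.3 and 55.8 CPM in engrafted control and 186, 151, 130.1 and 196 CPM in engrafted LPS libraries, and 74.7, 82.6, 97.3 and 88.8 CPM in host control and 181, 196, 105 and 135 CPM in host LPS libraries. The groups were apart in both populations, with a log2 fold change of 1.29 ± 0.20 (adjusted p = 3.75e-05) in engrafted cells and a log2 fold change of 0.83 ± 0.19 (adjusted p = 0.00102) in host microglia. Psmc1 was 104, 62.4, 108 and 99.0 CPM in engrafted control and 277, 285, 200.4 and 174 CPM in engrafted LPS libraries. In host microglia it was 126, 116, 79.0 and 138 CPM in control and 249, 307, 196 and 169.7 CPM in LPS libraries, and again no LPS library was as low as a control library. Its rise was past 2-fold in both, with a log2 fold change of 1.29 ± 0.20 (adjusted p = 4.87e-05) in engrafted cells and a log2 fold change of 1.01 ± 0.19 (adjusted p = 0.000249) in host microglia.

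Psmc2 and Psmc3 passed the test with LPS in engrafted cells alone. Psmc2 was 95.7, 96.1, 78.6 and 68.4 CPM in engrafted control and 163, 167, 122 and 168 CPM in engrafted LPS libraries, a log2 fold change of 0.82 ± 0.19 (adjusted p = 0.00159). In the host population it was 136, 154, 158 and 151 CPM in control and 166, 180.5, 130.4 and 171 CPM in LPS libraries, a log2 fold change of 0.10 ± 0.15 (adjusted p = 0.637). The host groups overlapped. Psmc3 was 78.6, 96.1, 128 and 86.4 CPM in engrafted control, 195, 203, 135 and 174 CPM in engrafted LPS, 132, 171, 163 and 181 CPM in host control and 148, 282, 165 and 192 CPM in host LPS libraries. Its log2 fold change was 0.83 ± 0.20 (adjusted p = 0.00226) in engrafted cells and 0.27 ± 0.18 (adjusted p = 0.242) in host microglia. Psmc5 and Psmc6 passed in host microglia alone, with 0.66 ± 0.22 and 0.56 ± 0.19 against 0.67 ± 0.31 and 0.53 ± 0.22 in engrafted cells. Adjusted p was 0.0204 and 0.0226 in host microglia and 0.0969 and 0.0617 in engrafted cells. The host call of Psmc5 was lost without control mouse 7 or 8 or LPS mouse 1 or 2, and in a joint fit of the 16 libraries, and that of Psmc6 without control mouse 5, 6 or 8 or LPS mouse 1 or 2, with adjusted p between 0.0509 and 0.0839.

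The base also holds Psmd1 and Psmd2, the scaffold that receives ubiquitin carriers, and Psmd4, a ubiquitin receptor. Psmd2 rose in both populations, with 1.09 ± 0.25 (adjusted p = 0.00163) in engrafted cells and 0.73 ± 0.19 (adjusted p = 0.00357) in host microglia. Psmd1 passed in neither (0.35 and 0.41, adjusted p = 0.243 and 0.0560). Psmd4 was 129.9, 153, 151 and 88.2 CPM in engrafted control and 229, 183, 176 and 264 CPM in engrafted LPS libraries, groups that did not overlap. It was 83.4, 117, 144 and 134 CPM in host control and 187, 200.4, 129 and 131 CPM in host LPS libraries, groups that did. Its log2 fold change was 0.65 ± 0.20 (adjusted p = 0.0152) in engrafted cells and 0.42 ± 0.18 (adjusted p = 0.0746) in host microglia. Without engrafted control mouse 8 the former no longer passed (0.0703), and without host LPS mouse 3 or 4 the latter did (0.0355 and 0.0323). The latter also passed without a filter (0.0432).

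Of the 8 lid subunits, 7 rose in engrafted cells and 6 in host microglia, beside 19.4% and 19.2% of all genes tested. Their median log2 fold changes were 1.01 and 0.70. Psmd14, the deubiquitinase that cuts the ubiquitin chain off the substrate, was 54.4, 43.8, 57.3 and 55.8 CPM in engrafted control and 104, 95.2, 104 and 140.2 CPM in engrafted LPS libraries. Host microglia had 60.0, 58.3, 55.8 and 51.1 CPM in control and 122, 155, 109 and 94.6 CPM in LPS libraries. It rose in both, with a log2 fold change of 1.00 ± 0.20 (adjusted p = 0.000510) in engrafted cells and a log2 fold change of 1.09 ± 0.18 (adjusted p = 4.73e-05) in host microglia, and control and LPS libraries were apart. Psmd3, Psmd6 and Psmd12 rose in both as well, with log2 fold changes of 1.01, 1.04 and 0.85 in engrafted cells and 0.90, 0.81 and 0.90 in host microglia (adjusted p of 0.00483 or lower). Psmd8 gave 1.12 ± 0.19 (adjusted p = 0.000100) and 0.42 ± 0.16 (adjusted p = 0.0441), and the host call was lost without control mouse 5, 6 or 7 or LPS mouse 2 or 3, with adjusted p of 0.0633 to 0.131, and with DESeq2 (0.0504), a minimum of 10 reads in each library (0.0526) or a joint fit of the 16 libraries (0.0638). Psmd7 passed in engrafted cells (0.80 ± 0.22, adjusted p = 0.00735) and gave 0.51 ± 0.21 (adjusted p = 0.0565) in host microglia. Psmd11 passed in neither (0.09 and 0.58).

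Summed over genes, the 14 subunits of the core reached 1082, 1104, 1196 and 1215 CPM in engrafted control and 2353, 2199.6, 1935 and 2192 CPM in engrafted LPS libraries. In host microglia the sum was 1080.4, 1201, 1331 and 1123 CPM in control and 1862, 2125, 1516 and 1529 CPM in LPS libraries. The 17 cap subunits gave 1208 ± 39.3 CPM (SD, n = 4) in engrafted control, 2352 ± 216 CPM in engrafted LPS, 1487 ± 116 CPM in host control and 2261 ± 414 CPM in host LPS libraries. Within each population every LPS library was above every control library for both sums. Among host LPS libraries, those of mice 1 and 2 had the higher sums.

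**Figure D3:**
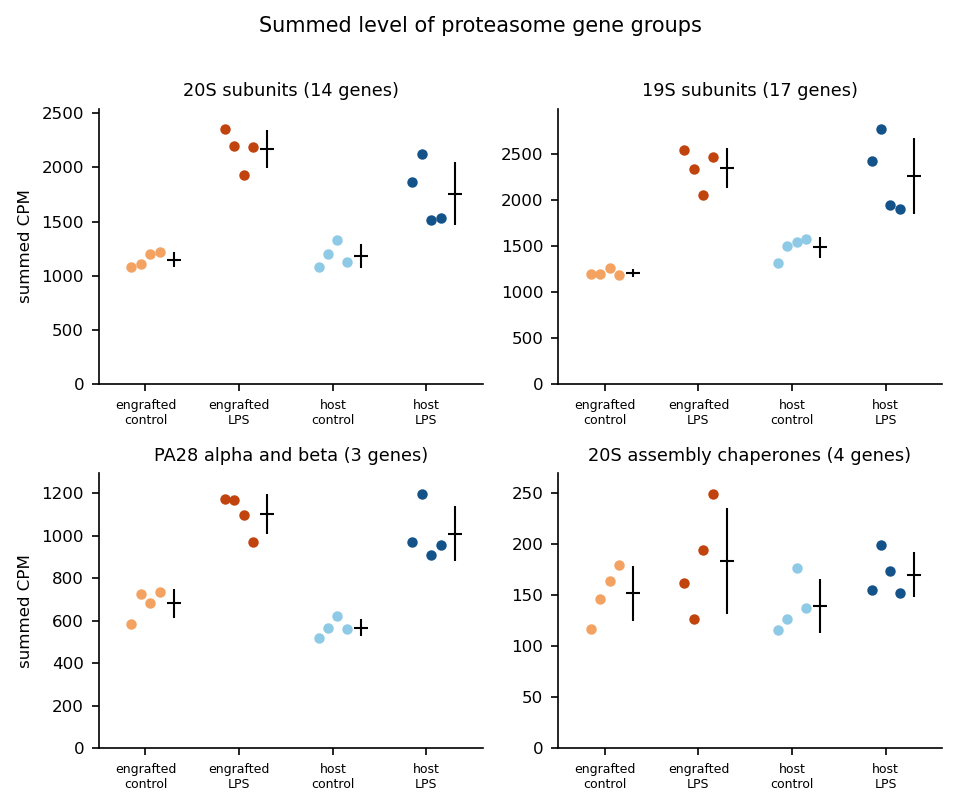
Summed level (CPM, axes from 0) of the genes of the 20S core, the 19S cap, PA28 and the 20S assembly chaperones in each library, with the mean and SD of each group of 4. The first 3 sums are higher in every LPS than in every control library of the same population, whereas the sums of the assembly chaperones overlap.

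The activators bind the ends of the core. Psme1 encodes the alpha chain of PA28, a cap of immune cells that is induced by interferon. It was 376, 467, 464 and 454 CPM in engrafted control and 715, 717, 693 and 737 CPM in engrafted LPS libraries, and 332, 377, 389 and 360.5 CPM in host control and 609, 809.6, 607 and 619 CPM in host LPS libraries. It rose in both, with a log2 fold change of 0.67 ± 0.17 (adjusted p = 0.00390) in engrafted cells and a log2 fold change of 0.84 ± 0.14 (adjusted p = 6.06e-05) in host microglia, and no LPS library was as low as a control library. The beta chain cannot be assigned with certainty. Reads were counted on Psme2 (chromosome 14, 5912 bases from Psme1) and on Psme2b (chromosome 11), a near-identical copy that has 789 of 794 aligned bases in common with the Psme2 transcript. As only uniquely mapped reads were kept, the counting could split them. Psme2 had 0 to 8 reads per library and was not tested. Psme2b was 209, 255, 211 and 275 CPM in engrafted control and 451, 442, 397 and 233 CPM in engrafted LPS libraries, of which that of mouse 4 lay among the controls. The host values were 182, 189, 227 and 199 CPM in control and 359, 381, 299 and 335 CPM in LPS libraries, which were apart. The log2 fold change was 0.65 ± 0.20 (adjusted p = 0.0160) in engrafted cells, a call lost without control mouse 5 or 7 or LPS mouse 1 (adjusted p of 0.0587 to 0.0620), and 0.77 ± 0.14 (adjusted p = 0.000154) in host microglia.

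Psme3, the nuclear activator PA28 gamma, was 30.2, 25.3, 47.5 and 43.2 CPM in engrafted control and 66.0, 58.6, 50.7 and 44.9 CPM in engrafted LPS libraries. In the host population it was 48.3, 64.1, 32.7 and 44.9 CPM in control and 87.2, 68.8, 65.2 and 55.6 CPM in LPS libraries. The groups overlapped in both populations. Its log2 fold change was 0.59 ± 0.24 (adjusted p = 0.0614) in engrafted cells and 0.55 ± 0.21 (adjusted p = 0.0480) in host microglia. The host call was lost without control mouse 5, 7 or 8 or LPS mouse 1 or 3 (adjusted p of 0.0526 to 0.194), with DESeq2 (0.0675) or with a minimum of 10 reads in each library (0.0548), and in engrafted cells the gene passed without control mouse 7 (0.0385) or LPS mouse 4 (0.0282). In engrafted cells the gene also passed with limma-trend (0.0441). Psme4, the activator PA200, was 76.6, 96.1, 67.2 and 90.0 CPM in engrafted control and 74.9, 62.2, 101 and 44.9 CPM in engrafted LPS libraries, with a log2 fold change of -0.21 ± 0.22 (adjusted p = 0.468). Host microglia had 67.3, 55.4, 65.4 and 30.6 CPM in control and 103, 91.7, 68.8 and 59.8 CPM in LPS libraries, with a log2 fold change of 0.57 ± 0.23 (adjusted p = 0.0526) that passed without control mouse 5 or 7 or LPS mouse 3 or 4 (adjusted p of 0.0197 to 0.0497). The host change also passed with RLE size factors (0.0485), without a filter (0.0160) and with limma-trend (0.0389). Psme4 was the activator whose values were not higher after LPS in engrafted cells.

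Psmf1 encodes PI31, a protein that binds the core and inhibits it in the test tube. It was 55.4, 60.7, 41.0 and 54.0 CPM in engrafted control and 81.7, 79.3, 72.9 and 64.5 CPM in engrafted LPS libraries, and 54.2, 56.3, 61.4 and 78.6 CPM in host control and 61.9, 79.8, 70.0 and 73.7 CPM in host LPS libraries. The engrafted groups did not overlap, yet the log2 fold change of 0.47 ± 0.20 (adjusted p = 0.0677) missed the threshold, which it passed without LPS mouse 4 (0.0287). It also passed in a joint fit of the 16 libraries (0.04415) and with limma-trend (0.04347). In host microglia the log2 fold change of 0.17 ± 0.18 (adjusted p = 0.480) did not pass.

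Of the 7 genes of assembly chaperones, 1 of 6 tested rose in engrafted cells and 2 of 7 in host microglia, beside 19.4% and 19.2% of all genes tested. The 4 genes of 20S chaperones, Psmg1 to Psmg4, summed to 152 ± 27.0 CPM (SD, n = 4) in engrafted control and 183 ± 52.0 CPM in engrafted LPS libraries, and to 139 ± 26.4 CPM in host control and 169.9 ± 22.0 CPM in host LPS libraries. Psmg1 passed in host microglia (0.94 ± 0.28, adjusted p = 0.0106) and had too few reads to be tested in engrafted cells, so its host call also depends on the filter. Psmg2, Psmg3 and Psmg4 passed in neither, with log2 fold changes from -0.20 to 0.54 in engrafted cells. The 19S chaperone Psmd9 was 17.1, 32.0, 27.9 and 28.8 CPM in engrafted control and 60.4, 42.7, 36.4 and 50.5 CPM in engrafted LPS libraries, and 14.6, 15.5, 15.2 and 21.4 CPM in host control and 47.0, 41.9, 38.6 and 34.8 CPM in host LPS libraries. Its control and LPS libraries were apart in both populations. The log2 fold change was 1.27 ± 0.23 (adjusted p = 0.000140) in host microglia, the largest there among members tested, and 0.84 ± 0.28 (adjusted p = 0.0211) in engrafted cells, where the call was lost without control mouse 5 or LPS mouse 1 (adjusted p of 0.0925 or above). The 19S chaperones Psmd5 and Psmd10 passed in neither (0.00 and 0.41 in engrafted cells, 0.16 and 0.08 in host microglia).

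The remaining members had few reads. Psma8, the alpha subunit of the testis, had 0 to 3 reads per library and Psmc3ip 2 to 11. Psmb11, the catalytic subunit of the thymus, had 1 read in 1 library and 0 in the other 15, and with 0 reads a level of up to 3 reads, which is 2.39 to 8.41 CPM over the libraries, cannot be told from 0. None of the 3 was tested.

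The members lie on 16 chromosomes, 10 of them on chromosome 11, with Psme1 and Psme2 5912 bases apart and Psmb5 and Psmb11 7314 bases apart. The windows of 250 bases before the first base of each gene model (mm9, counted from 1) were searched on both strands for the antioxidant response element that NRF transcription factors bind (ARE, TGACNNNGC), CCAAT, a pair of interferon regulatory factor sites (AANNGAAA), the STAT element (TTCNNNGAA), the heat shock element (GAANNTTC) and the κB site. Matches of different motifs may overlap. The ARE letters were found for 7 of the 47 members (14.9%) and 6 of the 31 subunits (19.4%), against 10.7% of 24338 genes. CCAAT was found for 34.04% of the members against 35.1% of all genes, the interferon pair for 21.3% against 20.3%, the STAT element for 2.13% against 6.84%, the heat shock element for 4.26% against 6.00% and the κB site for 10.6% against 7.75%. These shares are descriptions of letters, not of binding. Windows are printed for 4 of the 6 members with the largest change with LPS, to set the starts of genes that rose together side by side. The window of Psmc1 is not printed, as its model in the table starts 2145 bases inside the annotated gene, nor that of Psma6, whose annotated transcripts start at several places. Each runs 5′ to 3′ on the strand of the gene, and capitals mark a match to the ARE or to CCAAT. The window of Psmb4 is chr3:94690881-94691130 on the minus strand and that of Psmc4 chr7:28835112-28835361 on the minus strand. Those of Psmd13 and Psmd9 are chr7:148068043-148068292 and chr5:123677949-123678198 on the plus strand.
Psmb4: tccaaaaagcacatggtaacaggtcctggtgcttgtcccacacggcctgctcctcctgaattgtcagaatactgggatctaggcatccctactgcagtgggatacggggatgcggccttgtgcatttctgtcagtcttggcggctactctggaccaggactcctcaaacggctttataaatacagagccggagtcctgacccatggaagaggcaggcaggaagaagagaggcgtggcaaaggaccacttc
Psmc4: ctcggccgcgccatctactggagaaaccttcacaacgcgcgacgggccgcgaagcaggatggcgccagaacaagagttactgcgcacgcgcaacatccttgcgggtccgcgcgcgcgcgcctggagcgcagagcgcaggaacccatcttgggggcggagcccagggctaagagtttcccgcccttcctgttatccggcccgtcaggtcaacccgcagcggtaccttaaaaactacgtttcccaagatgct
Psmd13: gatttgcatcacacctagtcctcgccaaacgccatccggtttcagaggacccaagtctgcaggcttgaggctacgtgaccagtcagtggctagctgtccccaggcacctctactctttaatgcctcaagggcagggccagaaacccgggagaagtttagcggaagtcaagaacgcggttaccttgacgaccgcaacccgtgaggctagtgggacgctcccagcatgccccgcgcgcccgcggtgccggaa
Psmd9: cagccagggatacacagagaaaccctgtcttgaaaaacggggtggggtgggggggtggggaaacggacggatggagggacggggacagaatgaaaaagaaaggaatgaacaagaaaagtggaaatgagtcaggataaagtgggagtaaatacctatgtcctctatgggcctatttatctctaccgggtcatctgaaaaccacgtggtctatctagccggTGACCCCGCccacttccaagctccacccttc
Among these 4 windows, that of Psmd9 holds an ARE match, which starts 31 bases before the gene, and a match to the interferon pair, and that of Psmd13 a match to the κB site. Psmb4 and Psmc4 hold none of the 6 motifs.

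Engrafted cells and host microglia were next compared without and with LPS. Without LPS, 42 members were tested, 1 was higher in engrafted cells and 3 were lower, against 13.6% and 13.7% of 8042 genes. None passed 2-fold (0 with DESeq2 as well), against 11.0% of all genes tested. The median log2 difference of the 31 subunits was -0.08, beside 0.02 over all genes tested. With LPS, 43 were tested, 1 was higher and 0 were lower (0 with DESeq2), against 9.52% and 7.62% of 7843 genes. None passed 2-fold (0 with DESeq2), against 11.1%. The median of the 31 was 0.14, beside -0.01. With libraries scaled by their totals, the median log2 difference with LPS was lower by 0.148 over all genes tested, and that of the 43 members was -0.018 in place of 0.138, so that no direction of the members as a whole can be given. With the mouse as a replicate block, Psme1 passed as well without LPS (0.32, adjusted p = 0.0409), which gave 2 higher members.

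The 3 genes lower in engrafted cells without LPS were Psmc2, Psmc3 and Psmd13, all of the cap. Their values in each library are given above for the ATPases Psmc2 and Psmc3, whose engrafted and host control libraries did not overlap. The log2 difference was -0.76 ± 0.14 for Psmc2 (adjusted p = 0.000129) and -0.70 ± 0.15 for Psmc3 (adjusted p = 0.00110). Psmd13, a lid subunit, was 67.5, 70.8, 54.1 and 90.0 CPM in engrafted control and 101, 100.04, 104 and 124 CPM in host control libraries, groups that were apart, with a log2 difference of -0.55 ± 0.16 (adjusted p = 0.00967). Without engrafted control mouse 7 it was -0.45 (adjusted p = 0.0512). With LPS the same genes gave -0.04, -0.14 and 0.23, none of which passed the test.

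Psme4 was the gene higher in engrafted cells without LPS. The control libraries overlapped, with 67.2 CPM in engrafted mouse 7 and 67.3 CPM in host mouse 5, and the log2 difference was 0.65 ± 0.20 (adjusted p = 0.0197). Without engrafted control mouse 6 or 8 or host control mouse 8, adjusted p was 0.0708, 0.0574 and 0.0701, and it was 0.0524 in a joint fit of the 16 libraries and 0.0529 with limma-trend. With LPS, Psma6 was higher in engrafted cells, with a log2 difference of 0.72 ± 0.23 (adjusted p = 0.0377). This call was lost without engrafted LPS mouse 1 (0.151) or host LPS mouse 1, 3 or 4 (0.0972, 0.136 and 0.0988), and when libraries were scaled by their totals (0.0830), with a minimum of 10 reads in each library (0.0513) and with limma-trend (0.0547).

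**Figure D4:**
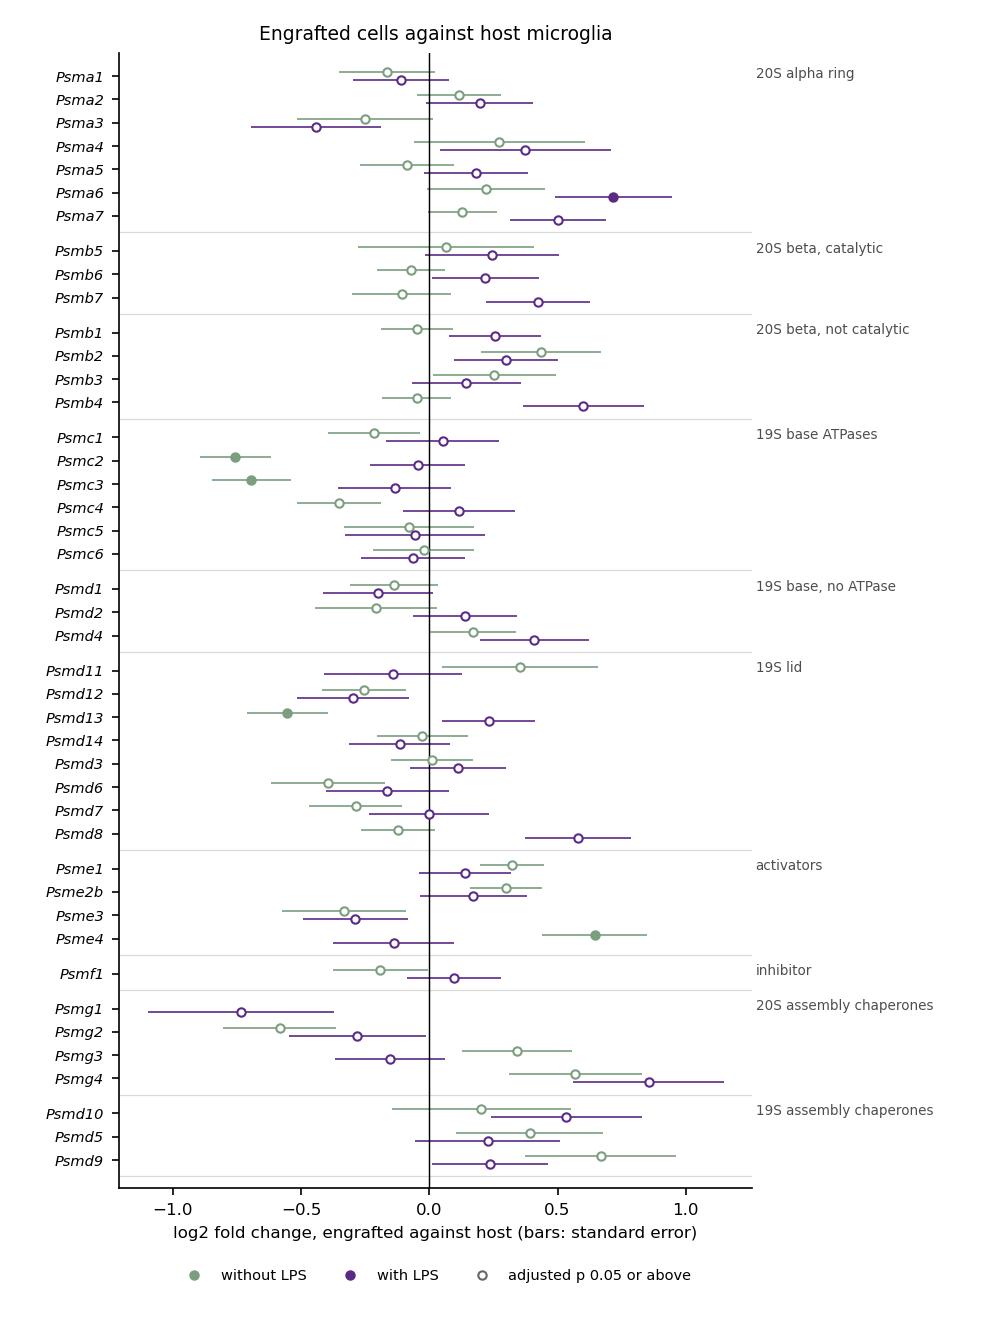
Log2 fold change of engrafted cells against host microglia (x axis, with standard errors) of the members tested, grouped by role, without LPS (green) and with LPS (purple). Open circles mark an adjusted p of 0.05 or above, which holds for all but Psmc2, Psmc3, Psmd13 and Psme4 without LPS and Psma6 with LPS.

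Whether the response to LPS differed between the populations was tested as an interaction over all 16 libraries. Of 43 members tested, 1 had a larger change in engrafted cells and 0 a smaller one (1 at an unadjusted p below 0.05, and 0 with DESeq2), against 2.97% and 2.9% of 8847 genes. None passed 2-fold (0 with DESeq2), against 4.95%. The gene was Psmd13. It was 67.5, 70.8, 54.1 and 90.0 CPM in engrafted control and 164, 178, 165 and 159.8 CPM in engrafted LPS libraries, and 101, 100.04, 104 and 124 CPM in host control and 172, 165, 117 and 124 CPM in host LPS libraries. The engrafted groups were wide apart, whereas the host LPS library of mouse 3 lay below the host control library of mouse 8. Its log2 fold change was 1.21 ± 0.18 (adjusted p = 2.69e-05) in engrafted cells and 0.42 ± 0.17 (adjusted p = 0.0469) in host microglia, and their difference 0.78 ± 0.24 (adjusted p = 0.0472). This difference was close to the threshold. Without any 1 of the 16 libraries except those of engrafted control mouse 8 and host LPS mice 1 and 2, its adjusted p was above 0.05, up to 0.107, and it was 0.0643 with library totals and 0.0738 without a filter. The host call was itself lost without control mouse 5, 6 or 7 or LPS mouse 1 or 2, with adjusted p of 0.0806 to 0.148, with DESeq2 (0.0566) and with a minimum of 10 reads in each library (0.0537).

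For the other members a difference in response was not shown. The next were Psmc2, with a difference of 0.71 ± 0.23 (adjusted p = 0.0701), Psmd8, with 0.68 ± 0.26 (adjusted p = 0.125), Psme4, with -0.79 ± 0.33 (adjusted p = 0.171), and Psmb4, with 0.64 ± 0.28 (adjusted p = 0.194).

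Of the 3 subunits that replace Psmb5, Psmb6 and Psmb7 in the immunoproteasome, Psmb8 and Psmb10 rose with LPS in engrafted cells, and Psmb9 fell in host microglia. Psmb8 was 541, 597, 549 and 565 CPM in engrafted control and 875, 762, 723 and 880.3 CPM in engrafted LPS libraries, and 349.9, 415, 448 and 419 CPM in host control and 345, 396, 302 and 291 CPM in host LPS libraries. Its log2 fold change with LPS was 0.49 ± 0.17 (adjusted p = 0.0273) in engrafted cells and -0.30 ± 0.14 (adjusted p = 0.101) in host microglia, and the difference 0.78 ± 0.21 (adjusted p = 0.0289). The engrafted call was lost without any 1 control library or LPS mouse 1 (adjusted p of 0.0566 to 0.0829), with library totals (0.0553) and with a minimum of 10 reads in each library (0.0515). The host change passed without LPS mouse 2 (0.0319). The difference was lost without engrafted LPS mouse 1, host control mouse 6, 7 or 8 or host LPS mouse 3 or 4 (adjusted p of 0.0515 to 0.0689).

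Psmb9 was 174, 282, 211 and 203 CPM in engrafted control and 170.0, 163, 181 and 221 CPM in engrafted LPS libraries, and 116, 147, 148 and 127 CPM in host control and 61.9, 63.8, 86.9 and 65.4 CPM in host LPS libraries. It fell in the host population (-0.97 ± 0.17, adjusted p = 8.17e-05) and gave -0.29 ± 0.19 (adjusted p = 0.242) in engrafted cells. Psmb10 was 298, 388, 341 and 379.7 CPM in engrafted control and 735, 645, 598 and 737 CPM in engrafted LPS libraries, and 300.1, 311, 372 and 283 CPM in host control and 378, 474, 316 and 302 CPM in host LPS libraries. It rose in engrafted cells, with a log2 fold change of 0.91 ± 0.18 (adjusted p = 0.000378), and gave 0.20 ± 0.16 (adjusted p = 0.322) in host microglia. Of the 3 genes, 1 passed the interaction test, that of Psmb8 above, against 2.97% of all genes tested with a larger change in engrafted cells. For Psmb9 and Psmb10 a difference in response was not shown, although Psmb10 passed in 4 alternatives. After LPS the engrafted level of all 3 was above the host level, with log2 differences of 1.31 ± 0.19, 1.42 ± 0.19 and 0.91 ± 0.20 for Psmb8, Psmb9 and Psmb10 (adjusted p = 5.66e-05, 2.61e-05 and 0.00302). Without LPS the differences were 0.52 ± 0.12, 0.74 ± 0.15 and 0.20 ± 0.13 (adjusted p = 0.00141, 0.000573 and 0.293).

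The summed level of Psmb8, Psmb9 and Psmb10 was divided by that of Psmb5, Psmb6 and Psmb7 in each library. The size of this ratio depends on how each transcript is captured, so only its change between groups can be read, and no test was made on it. It was 4.32, 5.25, 4.77 and 4.25 in engrafted control and 3.43, 3.02, 3.77 and 3.98 in engrafted LPS libraries. The host values were 3.23, 3.61, 3.25 and 2.97 in control and 1.85, 1.86, 1.97 and 2.04 in LPS libraries. It was lower after LPS in each population, without overlap. Psmb9 over Psmb6 was 1.33 ± 0.272 in engrafted control, 0.567 ± 0.145 in engrafted LPS, 0.755 ± 0.0969 in host control and 0.253 ± 0.0799 in host LPS libraries (mean ± SD, n = 4), without overlap between control and LPS. Psmb8 over Psmb5 was 29.2 ± 18.2 in engrafted control, 19.6 ± 3.97 in engrafted LPS, 19.6 ± 7.67 in host control and 9.84 ± 3.91 in host LPS libraries. For Psmb10 over Psmb7 the ratio was 6.34 ± 1.17 in engrafted control, 6.86 ± 0.526 in engrafted LPS, 5.41 ± 1.49 in host control and 4.97 ± 0.747 in host LPS libraries. These last ratios overlapped between control and LPS libraries in both populations.

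**Figure D5:**
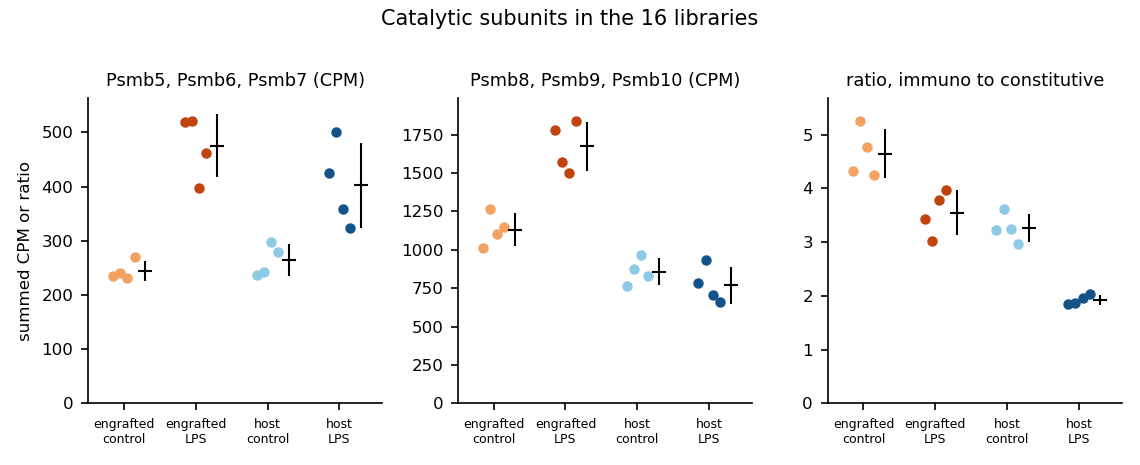
Summed level of the constitutive catalytic genes (left, CPM), of the immunoproteasome genes (middle, CPM) and their ratio (right) in each library, with the mean and SD of each group of 4 and axes from 0. The constitutive sum is higher after LPS in both populations, the immunoproteasome sum in engrafted cells, and the ratio is lower after LPS in both.

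Genes around the proteasome moved in both directions. Of 13 genes whose products bind or help to build it, 11 were tested in engrafted cells and 12 in host microglia, and 3 rose and 1 fell with LPS in each, against the 19.4% and 19.3% of all genes tested that rose and fell in engrafted cells and the 19.2% and 20.5% in host microglia. Zfand5, a zinc finger protein that activates the proteasome, rose from 211 ± 19.7 to 561 ± 91.5 CPM (SD, n = 4) in engrafted cells and from 229 ± 27.7 to 452 ± 49.1 CPM in host microglia, with log2 fold changes of 1.37 ± 0.19 and 0.97 ± 0.15 (adjusted p = 8.46e-06 and 1.60e-05). Akirin2, which carries proteasomes into the nucleus, fell by 0.93 on the log2 scale in engrafted cells (SE 0.23, adjusted p = 0.00328) and fell by 1.84 in host microglia (SE 0.17, adjusted p = 2.59e-08). Shfm1, the smallest subunit of the lid, whose symbol lies outside the pattern, was 61.4, 123, 99.9 and 129.6 CPM in engrafted control and 232, 223, 177 and 151 CPM in engrafted LPS libraries, and 57.1, 67.0, 67.0 and 56.2 CPM in host control and 58.5, 90.7, 76.1 and 80.7 CPM in host LPS libraries. It rose in engrafted cells (0.91 ± 0.22, adjusted p = 0.00232), gave 0.29 ± 0.18 (adjusted p = 0.214) in host microglia. It was higher in engrafted cells than in the host by 0.75 ± 0.19 on the log2 scale without LPS (adjusted p = 0.00409) and by 1.38 ± 0.19 with LPS (adjusted p = 3.99e-05). Pomp, the chaperone that closes the core, passed in neither (0.11 and -0.24). In the interaction test 0 of 12 of these genes passed in either direction, against 2.97% and 2.9% of all genes tested. A difference in response between the populations was thus not shown for them, Shfm1 included.

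Of 5 regulators of proteasome genes, 4 were tested in each population. In engrafted cells 1 rose and 2 fell with LPS, against 19.4% and 19.3% of all genes tested. In host microglia 2 rose and 0 fell, against 19.2% and 20.5%. Ddi2, the protease that releases the transcription factor Nfe2l1, rose in both populations. It was 48.4, 32.0, 34.4 and 41.4 CPM in engrafted control and 129, 132, 130.1 and 109 CPM in engrafted LPS libraries, and 24.9, 32.1, 31.1 and 39.8 CPM in host control and 87.2, 84.7, 88.1 and 68.2 CPM in host LPS libraries, without overlap. The log2 fold change was 1.62 ± 0.19 (adjusted p = 1.77e-06) in engrafted cells and 1.34 ± 0.19 (adjusted p = 9.12e-06) in host microglia. Nfe2l1 itself gave 0.07 ± 0.19 (adjusted p = 0.803) in engrafted cells and 0.61 ± 0.19 (adjusted p = 0.0138) in host microglia, where the call was lost without control mouse 7 (0.0521) or LPS mouse 1 (0.0561). Nfe2l2, the factor of the oxidative stress response, fell in engrafted cells from 275 ± 19.5 to 127 ± 35.8 CPM (SD, n = 4), with a log2 fold change of -1.14 ± 0.19 (adjusted p = 9.06e-05), and gave -0.39 ± 0.16 (adjusted p = 0.0590) in host microglia. Ngly1, which removes the sugars from Nfe2l1 and had few reads, fell in engrafted cells as well (-1.37 ± 0.37, adjusted p = 0.00563). In the interaction test 0 of the 4 regulators passed, against 2.97% and 2.9% of all genes tested. A difference in response was thus not shown for Nfe2l1, Nfe2l2 or Ngly1.

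All 8 genes of ubiquitin shuttles and of the segregase that extracts proteins for degradation were tested. In engrafted cells 1 rose and 0 fell with LPS, against 19.4% and 19.3% of all genes tested. In host microglia 2 rose and 1 fell, against 19.2% and 20.5%. The interaction test was passed by 0 of the 8. Ufd1l rose in engrafted cells, with a log2 fold change of 0.63 ± 0.18 (adjusted p = 0.0105). In host microglia the shuttle Rad23b (0.57 ± 0.18, adjusted p = 0.0150) and the segregase Vcp (0.41 ± 0.14, adjusted p = 0.0225) rose, and the shuttle Ubqln2 fell (-0.81 ± 0.25, adjusted p = 0.0124). Rad23b was lost without control mouse 6 (0.0624), Vcp without control mouse 6 or 8 or LPS mouse 1 (up to 0.0653), and Ubqln2 without control mouse 6 (0.0553) or LPS mouse 3 (0.0557). Rps27a, a gene of a ubiquitin fusion with 6 to 30 reads per library, rose in host microglia (1.51 ± 0.28, adjusted p = 0.000141).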

How the data were processed

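RNA was captured with oligo(dT) from sorted cells, and libraries followed a derivation of MARS-seq, which reads the 3′ end of transcripts. The authors mapped reads to mm9 with HISAT (version 0.1.5 per the labels), kept unique reads and deposited raw read counts on the exons of 24411 genes, made with HOMER. No removal of PCR duplicates is named in the sources used here. The floors, which are levels that cannot be told from no reads, therefore cover counting error only. The standard errors and SDs also include the spread between the libraries of a group. From these counts, edgeR 4.0.16 (R 4.3.3) was run with TMM, filterByExpr (minimum count 10, minimum total 15), a prior count of 0.125, the quasi-likelihood test and Benjamini-Hochberg adjustment over all genes tested. Each comparison used its own 8 libraries, and the interaction all 16. Standard errors were computed from the fold change and F. The test was also run on simulated counts with planted changes larger than those of the members. That run cannot show how the test performs at the members' changes.

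Genes were named where they were catalytic, Psmd14, Psmd4, an activator or the inhibitor, or passed the test (by library for the 5 largest changes per direction and comparison with a mean of at least 20 CPM). Pathway genes that passed could be named too, and some are not reported here. The members and lists were chosen with earlier results of these data known.

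Alternatives were RLE size factors, library totals, DESeq2 1.42.0, no filter, a minimum of 10 reads in each library, a joint fit of the 16 libraries, limma-trend (limma 3.58.1), a replicate block and leaving out each library. Same-numbered engrafted and host libraries came from the same mouse, which pairs them by design. The correlation of their deviations from the group means was -0.0176 to 0.258 over the 8 mice, against a mean of -0.0751 to 0.00725 with the other mice. LPS and control libraries share no mouse and were not paired. Biological replicates are separate mice. Libraries of the study's other experiment were not analysed here.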

Additional observations from a re-analysis of the deposited data

Results flagged for a closer look

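In 8 of 76 combinations of a gene and a group, 1 library lay far from the other 3 (a gap of over 0.829 of the group's range), where chance gives about 5% of groups. The combinations were those of the 19 members given by library. In engrafted control cells, Psmb7 was 65.5 CPM in mouse 7 against 52.2 to 54.4 in the others, Psmb4 was 172 CPM in mouse 7 against 139 to 143, and Psme1 was 376 CPM in mouse 5 against 454 to 467. In engrafted LPS cells, mouse 3 had 28.6 CPM of Psmb5 against 47.0 to 47.7 and 122 CPM of Psmc2 against 163 to 168. In host control microglia, mouse 8 had 124 CPM of Psmd13 against 100.04 to 104 and 21.4 CPM of Psmd9 against 14.6 to 15.5. In host LPS microglia, mouse 2 had 809.6 CPM of Psme1 against 607 to 619.

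The change of Psmd13 with LPS was larger in engrafted cells than in host microglia by 0.78 on the log2 scale, by the interaction term of edgeR's quasi-likelihood test (adjusted p = 0.0472). This call was lost in 15 of the alternatives, most of which left out 1 library. It was 1 of 43 members tested (2.33%), against 2.97% of all genes tested. Every one of the 4 engrafted LPS libraries was above every engrafted control library, whereas the host groups overlapped.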

How the results depend on the processing

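The rise with LPS held in count. In engrafted cells 22 to 31 members were higher over the alternatives and 0 lower, and in host microglia 19 to 29 and 0. Of the 26 engrafted calls, 21 were kept in every alternative, and of the 24 host calls, 17. Past 2-fold lay 6 members in engrafted cells with at least 10 reads in every library (fewer genes were tested), 8 to 12 when 1 library was left out, and in host microglia 2 to 7, the ends without host LPS mouse 2 and mouse 3. Engrafted against host cells without LPS, the higher members were 2 with DESeq2, 3 with at least 10 reads in every library, 0 in the fit of all 16 libraries, 0 with limma-trend, 2 with the replicate block and 0 to 5 without 1 library, and the lower ones 5 with limma-trend and 2 to 5 without 1 library. With LPS, the higher members were 0 with library totals, 4 with DESeq2, 2 without a filter, 0 with at least 10 reads in every library, 5 in the fit of all 16 libraries, 0 with limma-trend and 0 to 4 without 1 library, the lower ones 0 to 1 and those past 2-fold 0 to 1 without 1 library. For the interaction the higher members were 0 with library totals, 2 with DESeq2, 0 without a filter, 2 with at least 10 reads in every library, 2 with limma-trend and 0 to 1 without 1 library. The cause of these changes was not tested. Of 1677 values of single genes, 1503 kept direction and call, 147 no longer passed, 27 newly passed and 0 reversed. With the mouse as a replicate block the calls of Psmc2 (-0.76, adjusted p = 0.000181), Psmc3, Psmd13 and Psme4 without LPS, Psma6 with LPS (0.75, adjusted p = 0.0168) and the Psmd13 interaction (0.79, adjusted p = 0.0398) stood. The replicate block could not be fitted for LPS against control, which share no mouse. Depth was 395283 to 1203597 gene reads, at which Psma8, Psmb11, Psmc3ip and Psme2 could not be tested.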
